A study of Mus musculus with 16 samples.

Results

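Genes of the zinc finger protein (Zfp) family were followed in mouse C17.2α neural cells exposed to strobilurin fungicides. The genes were chosen by their symbol, Zfp followed by digits alone, and by their measured level, a mean above 10 CPM, the counts of a gene scaled to the same library total, over 15 distinct libraries. With 1 symbol of that form left out beforehand, 373 such symbols remained. Of these, 193 passed and are the members described here, among 9758 genes of any kind above that minimum. Another 109 symbols lay between 1 and 10 CPM and 71 below 1 CPM, of which 20 had no count in any library. Just inside the minimum were Zfp202 (10.04 CPM), Zfp566 (10.03 CPM) and Zfp658 (10.01 CPM), and just outside it Zfp758 (9.92 CPM), Zfp235 (9.90 CPM) and Zfp599 (9.89 CPM). The minimum used the level alone and no comparison between treatments. The mean of the DMSO libraries was under 10 CPM for 2 members, Zfp934 and Zfp202, which passed through treated libraries.

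C17.2α cells are a neural stem cell line from mouse cerebellum made to overexpress the thyroid hormone receptor TRα1, and all libraries come from this line, grown in serum stripped of thyroid hormone. Cells received the solvent DMSO (2 libraries), azoxystrobin (100 and 1000 nM), or picoxystrobin, pyraclostrobin or trifloxystrobin (30, 100, 300 and 1000 nM each), and were lysed a day later. Each concentration was sequenced once, so that a compound's replicates are its different concentrations. The p-values measure the spread between these libraries. The labels do not say that the libraries came from separate cultures. Strobilurin fungicides act on respiration, at complex III of the mitochondrial electron transport chain.

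Most Zfp symbols denote proteins with C2H2 zinc fingers, short units in which a pair of cysteines and a pair of histidines hold a zinc ion and a few residues read bases of DNA. Many of them also carry a KRAB box, which recruits the corepressor TRIM28 and with it histone methylation that silences transposable elements and some imprinted genes. Others bind promoters, RNA or ribosomes. KRAB genes have multiplied in rodents and lie in clusters of close paralogs.

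A KRAB box was found by a sequence pattern in the coding sequence of 88 members and not in 104 others, and 1 member, Zfp469, had no coding model in the annotation (GENCODE M21). The median GC content of the longest transcript was 44.5% in the members and 48.98% in the other tested genes, and 136 of 193 members lay below the median of the others. The members with a KRAB box were the AT-rich part, with a median GC content of 41.3% against 48.8% in members without one, and they had more fingers (median 12 against 8). Median transcript lengths were 4092 bases in the members and 3518 bases in the other tested genes. The most members lay on chromosome 7 (42) and chromosome 17 (26, of which 22 with a KRAB box).

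The units below are each the first finger found in a gene with the codons just after it. They are shown because these genes lead the comparisons that follow and because their base composition differs. Capitals mark the codons of the cysteine and histidine pairs, and positions are in GRCm38 (mm10). The genes for this display were chosen after their values were seen. Zfp944 (chr17:22339644-22339712, minus strand, 37.7% GC), Zfp934 (chr13:62518451-62518519, minus strand, 37.7% GC) and Zfp113 (chr5:138145312-138145380, minus strand, 37.7% GC) are KRAB genes. Zfp579 (chr7:4994701-4994769, minus strand, 62.3% GC) and Zfp574 (chr7:25079606-25079674, plus strand, 58% GC) have no KRAB box found. The Zfp367 unit (chromosome 13, minus strand, 43.5% GC) spans 2 coding exons.
Zfp944: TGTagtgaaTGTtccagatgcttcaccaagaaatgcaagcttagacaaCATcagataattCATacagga
Zfp934: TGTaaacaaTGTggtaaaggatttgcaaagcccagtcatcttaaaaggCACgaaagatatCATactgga
Zfp113: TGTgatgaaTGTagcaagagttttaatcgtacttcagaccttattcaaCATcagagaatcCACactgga
Zfp367: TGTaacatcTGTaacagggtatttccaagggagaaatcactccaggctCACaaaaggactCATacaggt
Zfp579: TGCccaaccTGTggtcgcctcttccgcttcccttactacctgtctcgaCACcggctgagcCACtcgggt
Zfp574: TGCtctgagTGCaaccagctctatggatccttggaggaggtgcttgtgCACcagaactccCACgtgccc
Units of 69 bases were searched for by this spacing of the capitals, so all 6 share it by selection. Over whole coding sequences the GC content ran from 35.4% in Zfp944 and 36.6% in Zfp934 to 61.7% in Zfp574 and 68.5% in Zfp579.

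The libraries held 12292390 to 18188099 counts. The second DMSO library and azoxystrobin 100 nM had identical counts in all 54658 genes, while every other pair differed in at least 22355 genes, so they were counted as 1 DMSO sample. Picoxystrobin 1000 nM stood apart from the other picoxystrobin libraries in the direction of its changes, and it was given a level of its own with no test. Of 9 neural progenitor markers 5 had a mean above 10 CPM (Nes, Vim, Sox2, Msi2 and Thra, the gene of the overexpressed receptor), whereas Pax6 and Prom1 did not exceed 0.405 CPM. Col1a1 (1749 to 4746 CPM) and Col3a1 (1770 to 2738 CPM), collagen genes typical of fibroblasts, were high in all libraries. Neither Rbfox3 (neurons), Aqp4 (astrocytes) nor Ptprc (immune cells) had any count. Members took 0.855% to 0.956% of all counts, lowest in picoxystrobin 1000 nM. The highest was Zfp207, which acts in splicing and at the spindle, at a mean of 363 CPM or 111 CPM per kilobase of its longest transcript. Zfp91, a ubiquitin ligase, followed at 252 CPM (45.6 per kilobase) and Zfp148, a promoter-binding factor, at 251 CPM (25.6 per kilobase). In these bulk samples, fewer cells of a type and less RNA per cell cannot be told apart.

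In picoxystrobin at 30 to 300 nM Zfp genes changed in both directions. Against DMSO, 36 of 193 members rose and 30 fell (edgeR quasi-likelihood test, adjusted p under 0.05 over all tested genes), where 12.7% of all tested genes rose and 14.5% fell. As shares, 18.7% of the members rose and 15.5% fell. Of the 88 KRAB members 24 rose and 1 fell, and of the 104 others 12 rose and 28 fell. The median log2 fold change was 0.26 in KRAB members, -0.08 in the others, 0.06 in all members and -0.01 in all tested genes. These calls depend on the control: with the first DMSO library left out no member was called in edgeR and 47 had an unadjusted p under 0.05, and with the second left out 46 were called. Calls over all tested genes fell in both of these fits too. Without picoxystrobin 300 nM 21 members and 915 of the 9758 tested genes were called.

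Among the KRAB members, Zfp944 had the largest increase of any called Zfp gene. Its level was 11.1 and 12.3 CPM in the DMSO libraries and 15.9, 16.5 and 24.7 CPM at 30, 100 and 300 nM picoxystrobin. All 3 picoxystrobin libraries lay above both DMSO libraries, and the log2 fold change was 0.70 (SE 0.20, adjusted p = 0.0211 in edgeR). At 1000 nM the level was 9.8 CPM, below both DMSO libraries.

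Zfp386, a KRAB protein with 9 fingers found here, stood at 49.01 and 51.9 CPM in DMSO and at 68.1, 75.7 and 94.1 CPM at 30, 100 and 300 nM. The groups did not overlap (log2 fold change 0.65, SE 0.12), and the 1000 nM library was again lower, at 39.3 CPM. Zfp943 (0.65, SE 0.17) and Zfp938 (0.65, SE 0.15), KRAB genes of 37.1% and 36.7% GC, had like log2 fold changes. Zfp943 and Zfp944 lie on chromosome 17, where 7 of 26 members rose and 3 fell, against the 12.7% and 14.5% of all tested genes given above. Of the 50-base stretches of Zfp944 transcripts 10.4% occur in another gene.

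The members that fell most had no KRAB box found and were GC-rich. Zfp574 was at 34.0 and 27.9 CPM in DMSO and at 18.8, 17 and 13.9 CPM at 30, 100 and 300 nM picoxystrobin. No library overlapped between the sides, and the log2 fold change of -0.90 (SE 0.12, adjusted p = 0.00186 in edgeR) was the lowest of all members. Zfp579 went from 27.81 and 28.03 CPM to 16.1, 15.7 and 14.9 CPM, a log2 fold change of -0.84 (SE 0.155). Zfp628 (-0.77, SE 0.15) and Zfp319 (-0.76, SE 0.12) followed.

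Picoxystrobin 1000 nM did not continue these changes. Zfp574 returned to 27.6 CPM, Zfp628 was at 19.9 CPM against 9.02 to 10.2 CPM at the lower concentrations, and 80 of 88 KRAB members were lower at 1000 nM than at 300 nM. With that library placed among the picoxystrobin replicates, no member was called in edgeR, 37 had an unadjusted p under 0.05, and 4 of all tested genes were called.

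**Figure D1:**
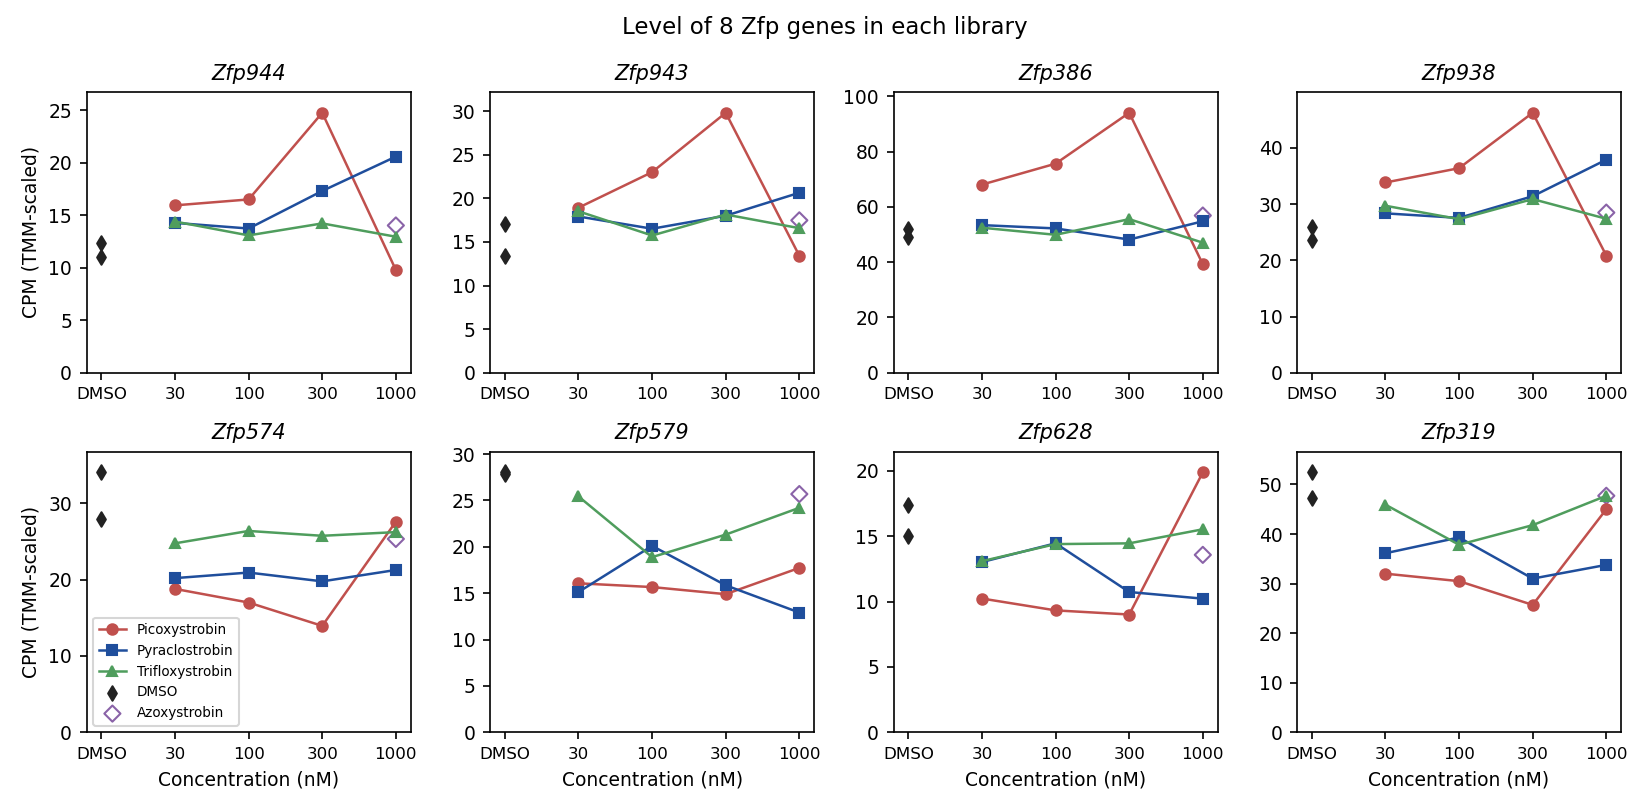
Level (vertical axis, CPM scaled by TMM) of the 4 Zfp genes with the largest increase (upper row) and decrease (lower row) in picoxystrobin 30 to 300 nM against DMSO. Each point is 1 library, lines join the concentrations of a compound (horizontal axis, nM, evenly spaced steps), and there are no error bars. Picoxystrobin departs from DMSO up to 300 nM and not in the same direction at 1000 nM for Zfp944, Zfp386 and Zfp938.

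The change of a member in picoxystrobin followed its GC content, as did that of other genes. Of the 38 members under 40% GC, 19 rose and 0 fell, and of the 28 members over 55% GC, 0 rose and 18 fell. Of the other tested genes 41.9% rose under 40% GC and 48.5% fell over 55% GC, where 64.3% of the members fell. The median log2 fold changes were 0.39 in the members under 40% GC and 0.33 in the 568 other tested genes of that class. They were 0.19 against 0.22 at 40 to 45% GC, -0.01 against 0.06 at 45 to 50%, -0.31 against -0.15 at 50 to 55%, and -0.48 against -0.36 over 55%. Across the 193 members, the correlation of GC content with the change from DMSO was -0.79, -0.82 and -0.84 in picoxystrobin 30, 100 and 300 nM. It was 0.38 in picoxystrobin 1000 nM, between -0.22 and -0.65 in pyraclostrobin, and between -0.01 and -0.56 in trifloxystrobin. These are descriptions, over genes that share a library and a control mean.

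The same gradient separated the controls from each other. From the first to the second DMSO library the KRAB members moved by a median of 0.11 on the log2 scale and the other members by -0.03, and the correlation of this difference with GC content was -0.67 over the members and -0.40 over all tested genes. The library's part and the compound's part in the gradient cannot be told apart with 1 library per concentration. When each library was corrected for its own trend on GC content and transcript length, 2 members rose and 5 fell in picoxystrobin 30 to 300 nM, against 1.13% and 1.81% of all tested genes. The median of KRAB members became 0.00 and that of the others -0.07. The members called were Zfp386 and Zfp91, which rose, and Zfp574, Zfp319, Zfp523, Zfp142 and Zfp592, which fell, and all 7 were called in the same direction without the correction. Zfp574 kept a log2 fold change of -0.50 and Zfp386 of 0.37, while Zfp944 had 0.32 (adjusted p = 0.207 in edgeR).

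**Figure D2:**
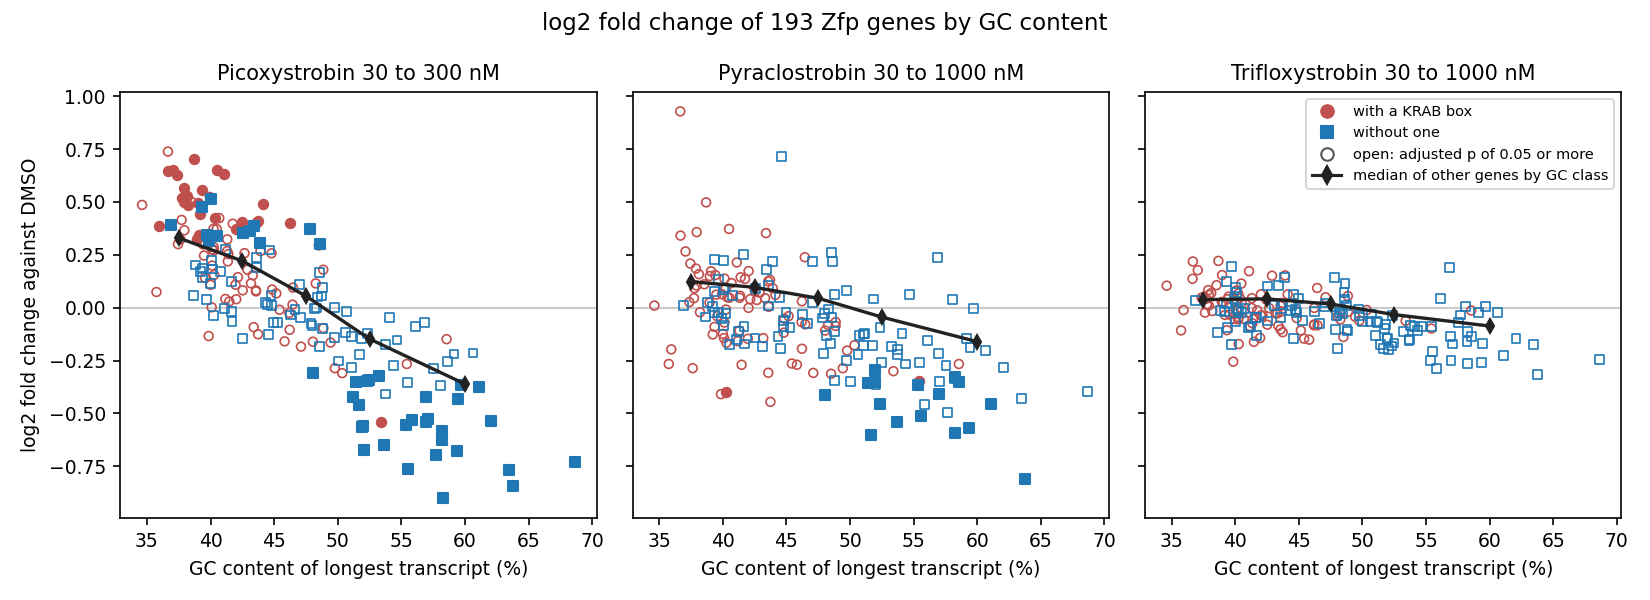
log2 fold change against DMSO (vertical axis) of the 193 Zfp genes by the GC content of their longest transcript (horizontal axis, %), for 3 compounds. Circles have a KRAB box, squares do not (Zfp469, with no coding model, is drawn as a square), filled symbols had an adjusted p under 0.05, and the black line joins the medians of the other tested genes in 5 GC classes. The slope is steepest in picoxystrobin, where the members run from 0.39 under 40% GC to -0.48 over 55% GC in the median.

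In pyraclostrobin at 30 to 1000 nM the Zfp genes called were lower than in DMSO. Against DMSO, 0 members rose and 18 fell, where 4.59% of all tested genes rose and 8.23% fell. As a share, 9.33% of the members fell. Of the 18, 16 had no KRAB box found. DESeq2 called 2 members higher and 24 lower, where 8.58% of all tested genes were higher and 10.5% lower. In edgeR the unadjusted p was under 0.05 for 53 members and for 3403 of the 9758 tested genes, a lower share in the members. The control limited this comparison too: without the first DMSO library 0 members were called (23 with an unadjusted p under 0.05), and without the second, 1. Calls over all tested genes fell in both of these fits too. Without pyraclostrobin 30, 100, 300 or 1000 nM, 30, 36, 4 or 9 members were called. Of all tested genes 2134, 2549, 135 or 511 were called in these 4 fits. In a fit of pyraclostrobin and DMSO alone, 0 members and 0 of all tested genes were called in edgeR. There 43 members and 2549 of all tested genes had an unadjusted p under 0.05.

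Zfp579 fell most, from 27.81 and 28.03 CPM in DMSO to 15.1, 20.1, 15.9 and 12.9 CPM at 30, 100, 300 and 1000 nM pyraclostrobin. All 4 libraries lay below DMSO (log2 fold change -0.81, SE 0.146, adjusted p = 0.0104 in edgeR). Zfp46 went from 64.2 and 61.2 CPM to 46.6, 47.3, 37.0 and 34.9 CPM (log2 fold change -0.60, SE 0.11), also without overlap, and it was lower at 300 and 1000 nM than at 30 and 100 nM. Zfp574 (-0.59, SE 0.11) and Zfp335 (-0.57, SE 0.13) completed the 4 leading decreases. Zfp335 controls proliferation of neural progenitors, and mutations in its human counterpart cause microcephaly. By GC class, the members over 55% GC had a median of -0.34 against -0.16 in the other tested genes, and those under 40% GC 0.05 against 0.12. With the correction for GC content and length, 2 members rose and 8 fell, against 1.9% and 3.94% of all tested genes. Of these, 5 were called in the same direction without the correction, and the 2 that rose were not. Zfp579, Zfp46 and Zfp574 were among those 8 and Zfp335 was not (adjusted p = 0.0744 in edgeR).

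Between the higher and lower concentrations of pyraclostrobin, Zfp genes were called in both directions, at lower shares than all tested genes. Between 300 and 1000 nM and 30 and 100 nM, 14 members rose and 22 fell, where 13.2% of all tested genes rose and 12.5% fell. As shares, 7.25% of the members rose and 11.4% fell. This comparison uses no DMSO library. Without 30, 100 or 1000 nM, 17, 15 or 9 members were called. Calls over all tested genes fell in these fits too. The median log2 fold change was -0.02 in the members and 0.00 in all tested genes. With the correction for GC content and length the members called were 15 higher and 22 lower, against 13.7% and 13.1% of all tested genes, and 25 of them were called in the same direction without it.

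Zfp934, a KRAB gene with 11 fingers found here, had the highest log2 fold change, 1.09 (SE 0.16). It was at 9.8 and 10.1 CPM at 30 and 100 nM and at 17.4 and 24.6 CPM at 300 and 1000 nM pyraclostrobin, with 7.9 and 8.5 CPM in DMSO. Both higher concentrations lay above both lower ones. The DMSO mean of Zfp934 is under the minimum, and it passed through libraries in which it is high. It was tested with the other members and counted among those that rose, but its values are read here as a description only. Of the 50-base stretches of Zfp934 transcripts, 41.6% occur in another gene, so its counts may include reads of a close copy and the value is uncertain. In picoxystrobin 300 nM it stood at 17.3 CPM, and it overlaps Zfp935 on the same strand.

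Zfp367, which has 2 fingers found here and shares no 50-base stretch with another gene but overlaps Gm47513 on the opposite strand, was at 34.2 and 28.4 CPM at 30 and 100 nM and at 53.2 and 69.9 CPM at 300 and 1000 nM. Every other library, whatever its treatment, held 24.1 to 37.3 CPM of it. The log2 fold change was 0.97 (SE 0.17, adjusted p = 0.00160 in edgeR), and 0.88 after the correction. The KRAB genes Zfp948 (0.56, SE 0.09) and Zfp111 (0.55, SE 0.10) rose as well. Zfp111 was at 25.7 and 26.7 CPM at the lower and at 35.9 and 40.9 CPM at the higher concentrations, with the other libraries at 21.3 to 26.2 CPM.

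Zfp113, a KRAB gene, fell from 25.2 and 26.5 CPM at 30 and 100 nM to 16.2 and 15.2 CPM at 300 and 1000 nM pyraclostrobin. The other libraries lay between 23.0 and 29.2 CPM, above both higher concentrations. The log2 fold change was -0.72 (SE 0.11, adjusted p = 0.000989 in edgeR) and -0.75 after the correction. Zfp827, which recruits a remodelling complex to telomeres, went from 52.2 and 52.5 CPM to 37.5 and 36.1 CPM (-0.51, SE 0.08), below every other library (43.8 to 58.1 CPM). Its exons overlap Gm45728 on the same strand. Zfp771 (-0.73, SE 0.14) and Zfp469 (-0.72, SE 0.16), whose human counterpart is linked to brittle cornea, also fell. The calls of Zfp367, Zfp948, Zfp111, Zfp113 and Zfp827 were made in all 9 alternative fits of this comparison, the removal of each pyraclostrobin library included.

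**Figure D3:**
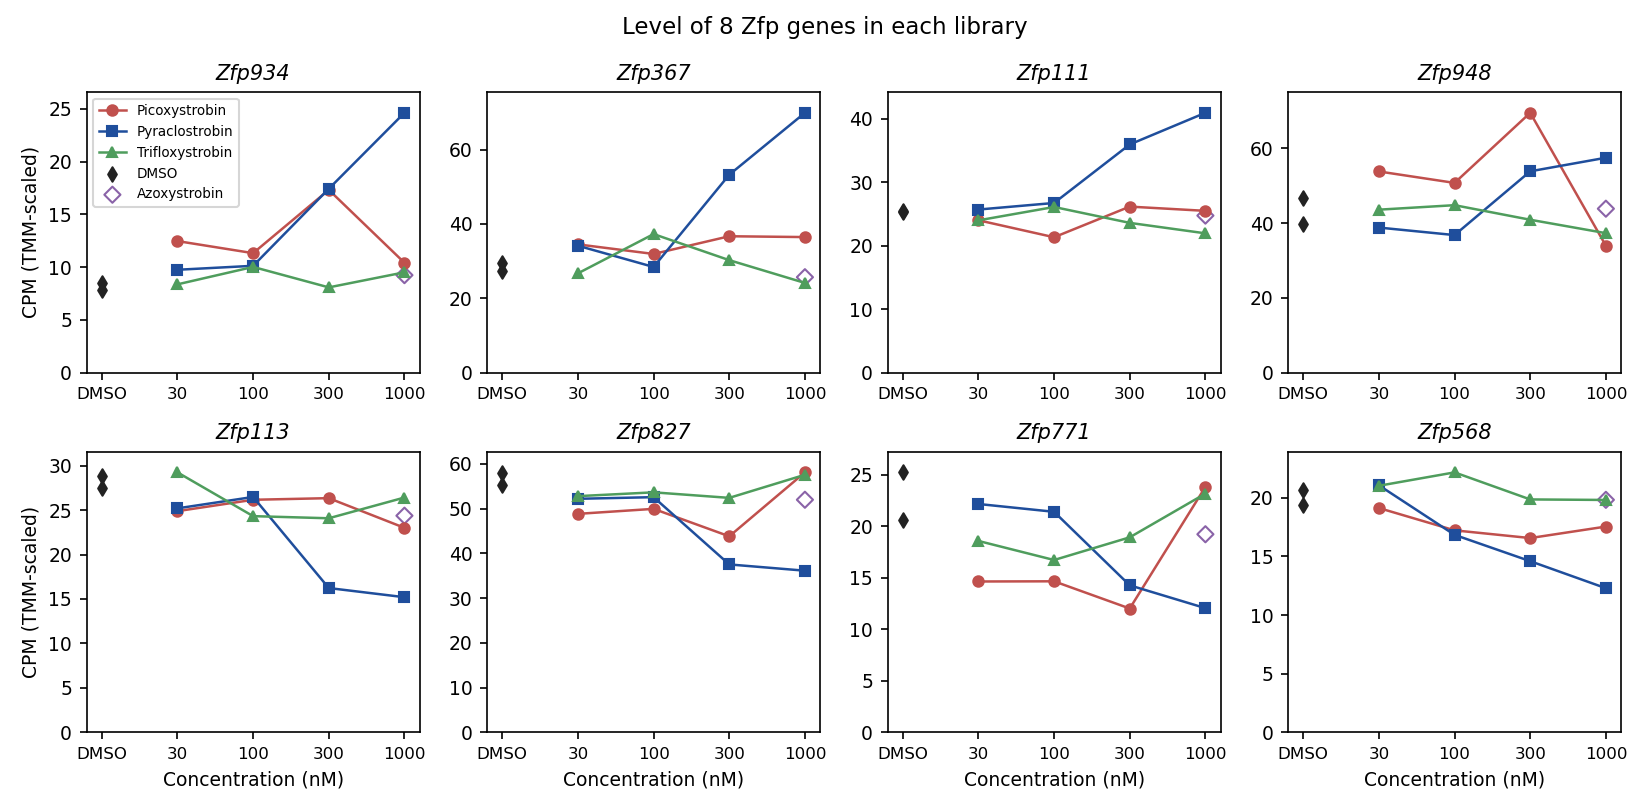
Level (vertical axis, CPM scaled by TMM) of Zfp genes with a higher (upper row) or lower level (lower row) at 300 and 1000 nM than at 30 and 100 nM pyraclostrobin. Each point is 1 library, lines join the concentrations of a compound (horizontal axis, nM, evenly spaced steps), and there are no error bars. For Zfp367, Zfp111, Zfp113 and Zfp827 the 2 highest pyraclostrobin concentrations stand outside the range of all other libraries.

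Against DMSO rather than the lower concentrations, pyraclostrobin at 300 and 1000 nM gave 20 members higher and 53 lower, where 23.2% of all tested genes rose and 24.1% fell. At 30 and 100 nM, 0 rose and 7 fell, where 0.994% rose and 2.52% fell. After the median of the 100 tested genes nearest in GC content was subtracted from each member, the median log2 change of the members was -0.052, -0.081, -0.165 and -0.12 at 30, 100, 300 and 1000 nM pyraclostrobin. At 300 nM 144 of 193 members were below the median of their GC neighbours, as were 144 in trifloxystrobin 100 nM and 148 in picoxystrobin 1000 nM. In the other treated libraries it ran from -0.018 (azoxystrobin 1000 nM) to -0.13 (picoxystrobin 1000 nM). Since both DMSO libraries define the zero, no value of this kind had a test.

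**Figure D4:**
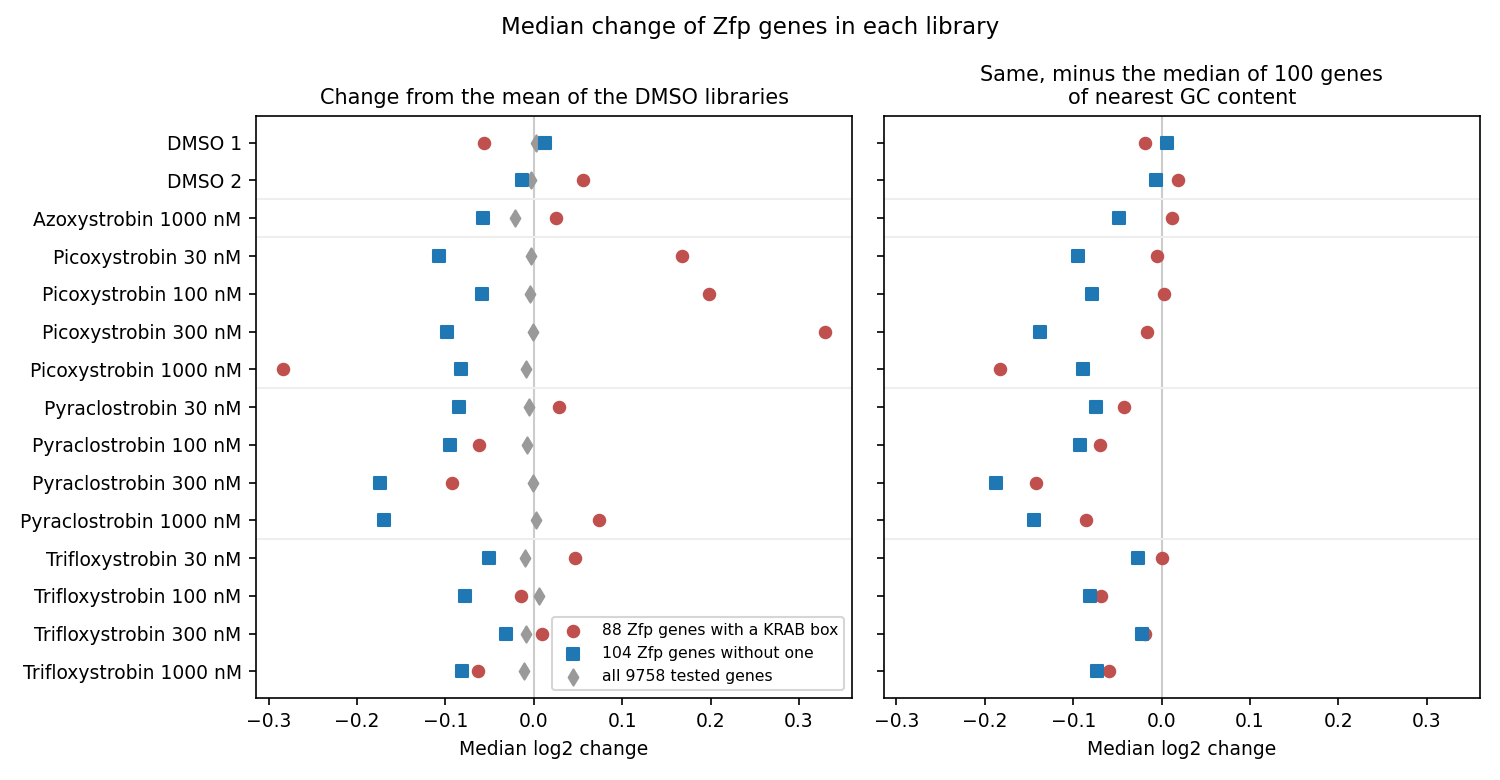
Median log2 change from the mean of the DMSO libraries (horizontal axis, left) for Zfp genes with and without a KRAB box and for all tested genes in each of 15 libraries (rows), and the same after the median of the 100 tested genes nearest in GC content was subtracted (right). Each symbol is a median over genes in 1 library, without error bars. KRAB members reach 0.33 in picoxystrobin 300 nM and -0.28 in picoxystrobin 1000 nM on the left, and -0.02 and -0.18 on the right.

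Trifloxystrobin gave no call. Against DMSO 0 of 193 members passed in edgeR, as did 0.0% of all tested genes. The unadjusted p was under 0.05 for 3 members, Zfp579, Zfp574 and Zfp687, with negative log2 fold changes, and for 302 of all tested genes. DESeq2 also called 0 members. All 4 libraries lay above both DMSO libraries for 9 members and below both for 25, where 7.09% and 8.75% of all tested genes did so. The median half-width of the 95% interval of a member's log2 fold change was 0.24, and for 187 of 193 members the interval lay within 1.5-fold in either direction. Zfp579 was at 25.4, 18.9, 21.3 and 24.2 CPM, below both DMSO libraries, and its interval ran from -0.63 to -0.0070. Azoxystrobin 1000 nM, a single library with no test, had a median member change of -0.03 against -0.02 over all tested genes.

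Compared with each other at 30, 100 and 300 nM, with the concentration as a block, picoxystrobin differed from each of the other compounds in some Zfp genes. There were 3 pairs of compounds, and p-values were adjusted over all tested genes within each pair. Between pyraclostrobin and picoxystrobin, 2 members were higher and 18 lower in pyraclostrobin, where 3.79% and 3.12% of all tested genes were. Of the 18, 14 had a KRAB box. Zfp942 (-0.67, SE 0.16), Zfp788 (-0.64, SE 0.11), Zfp959 (-0.64, SE 0.13) and Zfp566 (-0.63, SE 0.15) were lower in pyraclostrobin, and Zfp651 (0.50, SE 0.12) and Zfp41 (0.41, SE 0.08) were higher. Zfp959 and Zfp566 share 21.3% and 15.7% of their 50-base stretches with another gene, so their counts are uncertain. Zfp566 is also just over the minimum, at a mean of 10.03 CPM, with 12.53 to 13.4 CPM in picoxystrobin 30 to 300 nM. These libraries, in which it is high, lift it over the minimum. It was tested and counted with the other members, but its value is read as a description only. Zfp788 was at 27.1, 22.8 and 23.6 CPM in pyraclostrobin and at 35.3, 38.3 and 41.8 CPM in picoxystrobin, with no overlap.

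Between picoxystrobin and trifloxystrobin, 5 members were higher and 11 lower in picoxystrobin, where 3.24% and 4.11% of all tested genes were. Zfp386 (0.58, SE 0.11), Zfp959 (0.555, SE 0.13), Zfp938 (0.40, SE 0.10) and Zfp869 (0.36, SE 0.09) were higher. Zfp574 (-0.64, SE 0.12), Zfp469 (-0.64, SE 0.16), Zfp628 (-0.56, SE 0.13) and Zfp319 (-0.52, SE 0.11) were lower, and Zfp574 was at 24.8, 26.4 and 25.7 CPM in trifloxystrobin against 18.8, 17 and 13.9 CPM. In these pairs none of the 9730 genes, members included, was called in edgeR with the correction for GC content and length. There 32 members (pyraclostrobin and picoxystrobin) and 17 (picoxystrobin and trifloxystrobin) had an unadjusted p under 0.05, as did 1784 and 1199 of all these genes. Without picoxystrobin 100 or 300 nM no gene of any kind was called in edgeR in either pair. In those fits 35 to 50 members and 1431 to 2032 of all tested genes had an unadjusted p under 0.05. Without pyraclostrobin 100 or 300 nM no member was called in its pair with picoxystrobin (59 and 55 by unadjusted p). Of all tested genes 2 and 3 were called there. Without trifloxystrobin 30 or 300 nM no gene was called in the other pair. Without picoxystrobin 30 nM 32 and 23 members were called, where 1105 and 739 of all tested genes were. Without trifloxystrobin 100 nM 29 members were, where 1494 of all tested genes were.

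Between pyraclostrobin and trifloxystrobin 0 members were called in edgeR and in DESeq2. In edgeR 16 members and 1386 of all tested genes had an unadjusted p under 0.05, and 0.0307% of all tested genes were called. This does not show that both compounds act alike. For 187 of 193 members the 95% interval of the log2 difference lay within 1.5-fold in either direction, and the exceptions include Zfp579 (-0.68 to -0.032).

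Of 33 Zfp genes listed for a known role, 27 were members. In picoxystrobin 30 to 300 nM 5 of them rose and 5 fell, where 12.7% and 14.5% of all tested genes did. With the correction for GC content and length only Zfp91 of these 10 was called, and of 13 alternative fits Zfp462 was called in 3 and Zfp281 in 6. Those that rose were Zfp91 (0.30, SE 0.08), Zfp148 (0.32, SE 0.10), Zfp281 (0.36, SE 0.13) and Zfp131 (0.35, SE 0.10), the last 3 promoter-binding factors, and Zfp292 (0.34, SE 0.11). Those that fell were Zfp335 (-0.68, SE 0.13), Zfp219 (-0.54, SE 0.14), Zfp598 (-0.43, SE 0.11), the ligase that marks collided ribosomes, Zfp384 (-0.34, SE 0.10) and Zfp462 (-0.31, SE 0.11). Overlapping genes on the opposite strand, whose reads cannot be told apart without strand, occur at Zfp219, Zfp335, Zfp319 and Zfp384, and 61 of 193 members overlap an exon of another gene. Zfp384 also shares 13.1% of its 50-base stretches with another gene.

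In pyraclostrobin 300 and 1000 nM against 30 and 100 nM, 4 of the 27 rose and 2 fell, where 13.2% and 12.5% of all tested genes did. Of 9 alternative fits Zfp451 was called in 3, Zfp638, Zfp326 and Zfp462 in 4, Zfp809 in 6 and Zfp568 in 7, and Zfp326 and Zfp462 were not called with the correction. The RNA-binding proteins Zfp638 (0.24, SE 0.08) and Zfp326 (0.34, SE 0.10), the SUMO ligase Zfp451 (0.24, SE 0.08) and Zfp809 (0.44, SE 0.12), a KRAB protein that silences retroviral elements, rose. Zfp568 (-0.51, SE 0.13), a KRAB protein that silences a placental Igf2 transcript, and Zfp462 (-0.29, SE 0.09) fell. Zfp568 was at 21.1, 16.8, 14.6 and 12.3 CPM at 30, 100, 300 and 1000 nM, and the higher concentrations lay below every other library (16.6 to 22.2 CPM). Zfp36, which drives decay of AU-rich mRNAs, was not called in either comparison (log2 fold changes -0.05 and -0.27, adjusted p = 0.833 and 0.0825 in edgeR).

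Genes of the silencing machinery that KRAB proteins recruit were read beside them. Of 26 listed, 23 were tested. In pyraclostrobin 300 and 1000 nM against 30 and 100 nM, 4 rose and 6 fell, where 13.2% and 12.5% of all tested genes did. Trim28, the corepressor that binds the KRAB box, fell (-0.46, adjusted p = 0.00128 in edgeR), as did Chd4, Chd3, Morc2a, Ehmt1 and Ehmt2, while Cbx5, Pphln1, Suv39h2 and Uhrf1 rose. In picoxystrobin 30 to 300 nM 3 rose (Hdac2, Morc3 and Atrx) and 0 fell, against 12.7% and 14.5% of all tested genes. In pyraclostrobin against DMSO 1 rose and 3 fell, against 4.59% and 8.23%. The medians of the list were -0.02, -0.10 and -0.07 in these comparisons.

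Other zinc finger families were read in the same way, beside 12.7% higher and 14.5% lower of all tested genes in picoxystrobin 30 to 300 nM and 13.2% and 12.5% between the pyraclostrobin concentrations. Among 30 tested Zbtb genes, which join zinc fingers to a BTB domain, 2 rose and 4 fell in picoxystrobin 30 to 300 nM, and 3 rose and 3 fell between the pyraclostrobin concentrations. Among 10 Zkscan and Zscan genes 0 rose and 1 fell in picoxystrobin. Among 17 Zfp symbols with a letter after the digits 3 rose and 2 fell, and among 10 Klf genes 1 rose and 3 fell. No difference between these families and the Zfp members was tested.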

How the data were processed

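Total RNA of C17.2α cells was sequenced in 16 libraries by the authors (Lexogen SENSE libraries, NextSeq500). Per the labels and methods, reads were aligned to mm10 with Bowtie2 2.3.2.2 (submitters' processing notes) and the authors deposited raw counts per gene from htseq-count. Strand setting, annotation and treatment of multiply mapped reads are not given in the sources used here. The identical library was dropped and genes with mean CPM over 10 were tested. Counts were fitted with edgeR 4.0.16 (TMM, quasi-likelihood F-test, Benjamini-Hochberg adjustment over all tested genes, called under 0.05) in R 4.3.3. Levels are CPM scaled by TMM. The SE is the log2 fold change over the root of its F. GC content and length are of the longest GENCODE M21 transcript (GRCm38). The correction fitted natural splines (4 df each) per library, as an offset, over the 9730 genes with both values. Fingers and KRAB boxes were found by residue patterns in translated coding sequences. DESeq2 1.42.0, other filters and scalings, and leaving out each library were alternatives. The scripts were tested on simulated data. Members and lists were chosen with earlier results of these data known. Named genes were, per comparison, the 4 called members of largest change in each direction whose libraries did not overlap, the 3 of highest level, 3 on each side of the minimum, and called members of the role list. The split by KRAB box and GC class and the contrasts of the pyraclostrobin levels with DMSO were chosen after seeing the data. Intervals cover the spread between libraries.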

Additional observations from a re-analysis of the deposited data

Results flagged for a closer look

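A set of 5 Zfp genes had 1 library far from the other 3 of its compound, and in each case it was picoxystrobin 1000 nM. Its value was 27.5 CPM for Zfp326 (others 32.6 to 33.4), 72.0 CPM for Zfp41 (others 44.3 to 46.2), 23.0 CPM for Zfp469 (others 15.7 to 16.5), 7.69 CPM for Zfp566 (others 12.53 to 13.4) and 19.9 CPM for Zfp628 (others 9.02 to 10.2). The gap to the nearest library took 0.85 to 0.933 of the whole range. Of 123 groups of 4 libraries checked 5 passed the limit of Dixon's test for a single far value, and chance alone passes about 1 in 20.

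Members named for a difference between compounds at matched concentrations were marked by the test of that difference. Between pyraclostrobin and picoxystrobin the log2 differences were 0.50 for Zfp651, 0.41 for Zfp41, -0.67 for Zfp942, -0.64 for Zfp788, -0.64 for Zfp959 and -0.63 for Zfp566. The Zfp566 value is a description only, because its picoxystrobin libraries lift it over the minimum. Between picoxystrobin and trifloxystrobin they were 0.58 for Zfp386, 0.555 for Zfp959, 0.40 for Zfp938, 0.36 for Zfp869, -0.64 for Zfp574, -0.64 for Zfp469, -0.56 for Zfp628 and -0.52 for Zfp319. None of the 14 was called with the correction for GC content and length, and the cause of either pattern was not tested.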

How the results depend on the processing

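For 51 changes named for single genes, Zfp934 among them, 372 of 584 alternative values kept the call and 212 lost it. No direction reversed. The changes were named because they were called in these same counts, so the lack of reversals gives no further support. For picoxystrobin 30 to 300 nM the count of 66 members called became 7 with the correction for GC content and length and 0 with picoxystrobin 1000 nM as a further replicate, and 0 to 72 with 1 library left out. The median log2 fold change of 0.06 became -0.028, 0.00 and 0.021 to 0.12 in the same order. For pyraclostrobin the count of 18 became 10 with edgeR's filterByExpr, 10 with the correction, 4 with picoxystrobin 1000 nM as a replicate of its compound, 0 in a separate fit, and 0 to 36 with 1 library left out. For the higher against the lower pyraclostrobin concentrations the count of 36 became 22 in DESeq2 and 9 to 33 with 1 library left out. For pyraclostrobin against picoxystrobin the count of 20 became 0 with the 1000 nM libraries added, 37 without the concentration block, 31 in DESeq2, 0 with the correction, and 0 to 32 with 1 library left out. For picoxystrobin against trifloxystrobin the count of 16 became 0, 29, 27 and 0 under the same settings in this order, and 0 to 29 with 1 library left out. Calls over all tested genes moved in the same direction in these settings. For picoxystrobin they went from 2660 to 286 with the correction and 4 with the 1000 nM library as a replicate. For pyraclostrobin they went from 1251 to 1128, 568, 207 and 0, in the order of settings given. For pyraclostrobin against picoxystrobin they went from 674 to 2, 1433, 1157 and 0, again in the order given. The cause was not tested.

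Against genes of the same GC content, the median log2 change of the members was -0.049, -0.037, -0.075 and -0.13 at picoxystrobin 30, 100, 300 and 1000 nM and -0.12 at pyraclostrobin 1000 nM, from 0.010, 0.064, 0.13, -0.19 and -0.042. With the correction it was -0.047, -0.032, -0.046, -0.13 and -0.13. In the other libraries either adjustment shifted the member median by less than the spread between the DMSO libraries. The adjusted changes themselves were not all small, with -0.165 at pyraclostrobin 300 nM against genes of the same GC content. Each contrast with a lone DMSO library assumes that it varies like the treated groups. Precision is lowest for the 59 members under 20 CPM.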
